A study of Mus musculus with 6 samples.

Results

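The receptors for stress peptides and tachykinins were examined as a set of 10 genes in bulk RNA sequencing of mouse paraventricular thalamus, of 21959 genes in the deposited table. The set was taken by gene symbol and holds the corticotropin-releasing hormone (CRH) receptors Crhr1 and Crhr2, the binding protein Crhbp, the oxytocin and vasopressin receptors Oxtr and Avpr1a, the tachykinin receptors Tacr1 and Tacr3, the neuropeptide Y receptors Npy1r and Npy2r, and the somatostatin receptor Sstr2. All 10 symbols were found, and all 10 genes had enough counts to be tested. The CCI group held 3 libraries (replicates 1, 2 and 3) from wild-type mice with chronic constriction injury, in which ligatures around a peripheral nerve give lasting neuropathic pain. The PVT_WT group held 3 libraries (replicates 4, 5 and 6) from wild-type mice with no treatment. The labels give the tissue as brain and the design text names the paraventricular thalamus, with 30 mice in each group and no account of how they were divided among libraries. Neither sex, age nor the time after injury is given, and no sham operation is named, so nerve injury and surgery cannot be told apart. As the labels do not say that libraries came from separate animals, p-values measure library-to-library spread alone, and this may be technical.

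The paraventricular thalamus is a midline thalamic nucleus that receives dense peptide-releasing fibres from the hypothalamus and brainstem and is known for its part in arousal, stress and pain behaviour. The receptors studied here are G protein-coupled receptors through which slowly acting peptides change the firing of neurons. CRH receptors mainly raise cyclic AMP, tachykinin, oxytocin and vasopressin 1a receptors mainly release stored calcium through phospholipase C, and neuropeptide Y and somatostatin receptors mainly lower cyclic AMP and open potassium channels.

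Of the 10 genes, Crhr2 rose in CCI, and Npy1r, Oxtr, Tacr3, Avpr1a and Tacr1 fell. Crhr1, Crhbp, Npy2r and Sstr2 did not pass the test. Levels below are CPM, counts scaled to a common library size, with totals adjusted by TMM scaling, a method that balances the bulk of genes between libraries. A gene passed when its adjusted p in edgeR's quasi-likelihood test, over 14259 genes, was under 0.05. The 6 calls among 10 genes stand beside 52.3% of all tested genes called, which is a similar share. The 1 gene called higher stands beside 27.0% of all genes called higher, and the 5 called lower beside 25.3% called lower. The median log2 fold change was -0.92 over the 10 genes and 0.06 over all genes tested. For 6 members the CCI and PVT_WT libraries did not overlap, beside 63.0% of all genes (33.6% with every CCI library above and 29.4% with every CCI library below).

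These 5 lower calls depended on the scaling. With library totals alone none of the 5 passed (1 member was lower at an unadjusted p under 0.05), and 2 members passed as higher, beside 9.72% of all genes called lower and 45.4% called higher. On a scale of log2(FPKM + 1), tested with limma, none passed as lower (1 at an unadjusted p under 0.05) and 1 as higher, beside 9.84% and 45.6% of all genes. With a pseudocount of 0.1 the counts were the same, beside 8.87% and 46.3%. Groups did not overlap for 2 members under each of these scalings, beside 66.6% of all genes. These were Crhr1 and Crhr2, both with every CCI library above, and the groups of each lower gene overlapped there. The DESeq2 Wald test called 6 members lower, beside 28.1% of all genes, and limma-voom 5, beside 24.6%. Removing a trend on gene length and GC content left 2 lower and 2 higher, beside 23.7% and 23.0% of all genes. A stricter filter, at least 30 counts in 3 libraries, dropped Crhr1, Crhr2 and Avpr1a and left 3 lower and 0 higher, beside 25.9% and 28.4%, with groups apart for 3 members and 64.6% of all genes. With CCI replicate 3 and PVT_WT replicate 5 both left out, an alternative chosen after seeing the data, 7 members were lower and 1 higher, beside 31.6% and 33.0%, with groups apart for 7 members and 83.2% of all genes. Library totals and log2(FPKM + 0.1) each moved the median log2 fold change of all genes up by 0.59, log2(FPKM + 1) by 0.36 and the absence of a filter by 0.11. Measured from the median of all genes, each of the 5 stayed below 0 in every alternative in which it was tested. Under other library scalings this was nearly fixed in advance, since a shift common to all genes goes out with the median. Tacr1, for example, was at -1.0867 with library totals alone and at -1.0855 in the main fit. It therefore does not show that the calls withstand the scaling.

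**Figure D1:**
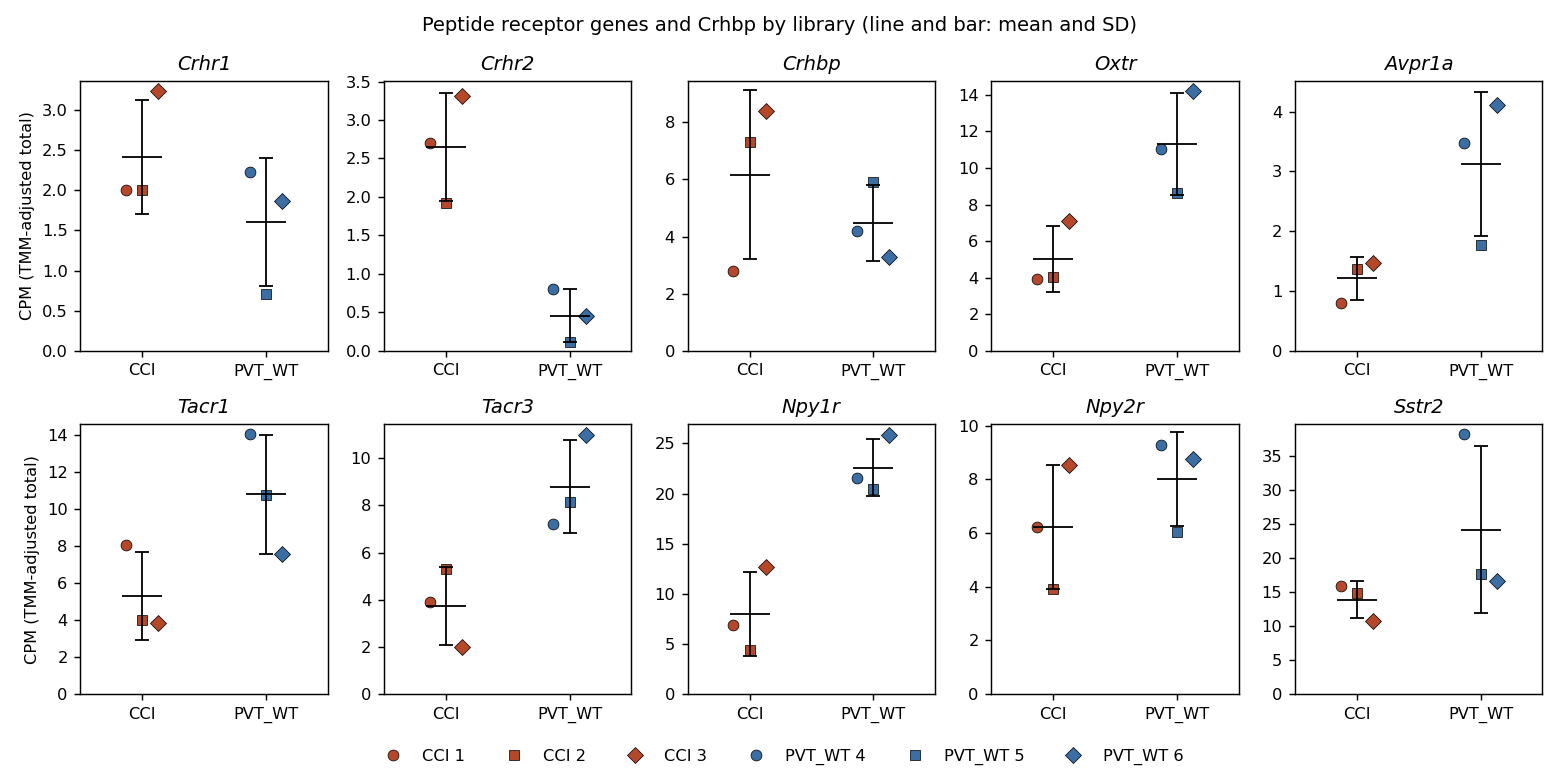
Level of each of the 10 genes (y axis, CPM from 0 on the TMM-adjusted total) in the 3 CCI and 3 PVT_WT libraries (points, 1 shape per library), with the mean and SD of each group as a line and bar. The 3 CCI libraries lie above all 3 PVT_WT libraries for Crhr2 and below them for Npy1r, Oxtr, Tacr3, Avpr1a and Sstr2, and the groups overlap for the other 4 genes.

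Base sequences just before the start of transcription are shown for Crhr2, the gene that rose, and for the 3 genes that fell with the smallest adjusted p, since these calls carry the comparison. Each is the 250 bases before the RefSeq start, 5′ to 3′ on the gene's own strand, from RefSeq on GRCm38.p6, a build other than the GRCm39 coordinates of the deposited table. All 10 genes were matched by symbol. Capitals mark the motifs searched on both strands, the TATA box TATAAA, the CCAAT box CCAAT, the GC box GGGCGG, the cyclic AMP response element TGACGTCA and its core TGACG, which lies within the full element.
Crhr2 (chr6:55133017-55133266, minus strand): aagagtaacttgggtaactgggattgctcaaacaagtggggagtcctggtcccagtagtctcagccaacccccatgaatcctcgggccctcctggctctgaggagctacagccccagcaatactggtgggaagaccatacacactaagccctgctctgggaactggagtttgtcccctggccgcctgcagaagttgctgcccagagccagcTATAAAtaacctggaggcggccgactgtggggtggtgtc
Npy1r (chr8:66697172-66697421, plus strand): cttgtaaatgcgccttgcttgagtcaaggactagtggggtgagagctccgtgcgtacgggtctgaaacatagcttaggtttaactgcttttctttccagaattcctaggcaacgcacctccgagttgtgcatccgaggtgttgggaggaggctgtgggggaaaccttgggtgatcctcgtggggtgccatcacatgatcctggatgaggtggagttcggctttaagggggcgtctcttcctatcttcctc
Oxtr (chr6:112489826-112490075, minus strand): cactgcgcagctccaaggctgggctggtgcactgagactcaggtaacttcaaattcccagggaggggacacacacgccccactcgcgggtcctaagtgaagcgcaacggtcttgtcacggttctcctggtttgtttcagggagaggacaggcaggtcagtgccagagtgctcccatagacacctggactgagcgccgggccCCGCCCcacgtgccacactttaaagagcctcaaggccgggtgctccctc
Tacr3 (chr3:134828757-134829006, plus strand): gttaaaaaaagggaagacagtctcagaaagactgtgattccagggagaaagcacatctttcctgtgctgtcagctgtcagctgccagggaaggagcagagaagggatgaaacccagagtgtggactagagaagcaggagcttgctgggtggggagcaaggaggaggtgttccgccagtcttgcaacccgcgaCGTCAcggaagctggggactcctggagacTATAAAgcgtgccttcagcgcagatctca
The capitals are a TATA box in Crhr2, a GC box in Oxtr, and a TGACG core and a TATA box in Tacr3, while the window of Npy1r held none of these letters. TATA letters were in 3 of the 10 windows (Crhr2, Tacr3 and Avpr1a), against 12.4% of 32851 windows of the same length. The TGACG core was in 5 of 10 (Crhbp, Tacr1, Tacr3, Avpr1a and Sstr2), against 17.8%, and the full element in Sstr2 alone, against 1.55%. GC boxes were in 4 of 10 (Crhr1, Npy2r, Oxtr and Sstr2), against 32.7%, and a CCAAT box in Avpr1a alone, against 33.8%. The genes that fell shared no one of these motifs, and a match is a match of letters only.

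The CRH system was described first. Crhr2 (ENSMUSG00000003476, chromosome 6, 55067034 to 55110001, minus strand, GRCm39) encodes the receptor that prefers urocortins to CRH. It had 2.71, 1.92 and 3.31 CPM in the CCI libraries, against 0.803, 0.118 and 0.449 CPM in the PVT_WT libraries. These levels came from 27, 21 and 43 counts in CCI and from 9, 1 and 6 counts in PVT_WT. Every CCI library lay above every PVT_WT library, and the gene was near the limit of detection in PVT_WT. The log2 fold change was 2.45 ± 0.53 (SE), a 5.46-fold higher level in CCI, with an adjusted p of 0.00505 in edgeR's quasi-likelihood test. It passed in each of the 16 alternatives in which it was tested, including each library left out (2.07 to 3.0007). The stricter filter left it out of the test. With a trend on gene length, GC content and mean expression removed, the log2 fold change was 1.44 (adjusted p = 0.0398). On log2(FPKM + 1), where changes of low genes are understated, it was 0.60, 0.18 above the median of all genes.

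Crhr1 (ENSMUSG00000018634, chromosome 11, 104023681 to 104066349, plus strand) encodes the high-affinity CRH receptor of the brain and pituitary. Its level was 2.004, 2.008 and 3.24 CPM in CCI, against 2.23, 0.709 and 1.87 CPM in PVT_WT. The groups overlapped on this scale. The log2 fold change of 0.56 ± 0.44 did not pass (edgeR adjusted p = 0.310), nor did it in any of 16 alternatives. With library totals alone it was 1.11 (adjusted p = 0.0895), and every CCI library then lay above every PVT_WT library. Crhbp (ENSMUSG00000021680, chromosome 13, 95567879 to 95581432, minus strand) encodes a secreted protein that binds CRH and keeps it from its receptors. It had 2.81, 7.30 and 8.40 CPM in CCI, against 4.19, 5.91 and 3.29 CPM in PVT_WT. CCI replicate 1 was the lowest of all 6 libraries and the other 2 CCI libraries were the highest. Crhbp had a log2 fold change of 0.49 ± 0.42 (edgeR adjusted p = 0.348). With library totals alone it was 1.10 (adjusted p = 0.0484), and with the length and GC trend removed 1.13 (adjusted p = 0.0453).

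The balance of the CRH receptors was read within each library, where scaling has no part. The log2 ratio of Crhr2 to Crhr1 counts, with 0.5 added to each, was 0.42, -0.07 and 0.03 in CCI, against -1.42, -2.12 and -1.97 in PVT_WT. Counts of the 2 genes were thus nearly equal in CCI and those of Crhr2 were the lower in PVT_WT, with no overlap of the groups. These counts are not divided by gene length. Per length, Crhr2 was the lower in CCI too, at 0.638 against 1.21 FPKM on average. The difference was 1.97, with a two-sided exact permutation p of 0.1, the smallest that 3 against 3 libraries can give, and 0.25 adjusted over 5 pairs. Crhbp over Crhr1 was 1.23 ± 0.69 in CCI and 1.55 ± 1.22 in PVT_WT (SD, n = 3), a difference of -0.33 (exact permutation p = 0.8, adjusted 0.9). That difference turned positive without CCI replicate 1 (0.05) and without PVT_WT replicate 5 (0.38).

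Oxtr and Avpr1a, receptors for the posterior pituitary peptides, both fell. Oxtr (ENSMUSG00000049112, chromosome 6, 112450644 to 112466904, minus strand), the oxytocin receptor gene, had 3.91, 4.02 and 7.09 CPM in CCI, against 11.1, 8.63 and 14.2 CPM in PVT_WT. The highest CCI library, replicate 3, lay below the lowest PVT_WT library, replicate 5, on the adjusted scale. On deposited FPKM it lay above that library (1.824 against 1.235). Oxtr had a log2 fold change of -1.17 ± 0.31 (edgeR adjusted p = 0.0135). Without CCI replicate 1 it was -1.03 (adjusted p = 0.0576) and without CCI replicate 2 it was -1.04 (adjusted p = 0.0549). With library totals alone it was -0.60 (adjusted p = 0.188).

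Avpr1a (ENSMUSG00000020123, chromosome 10, 122284404 to 122289357, plus strand), the vasopressin 1a receptor gene, had 0.802, 1.37 and 1.46 CPM in CCI, against 3.48, 1.77 and 4.11 CPM in PVT_WT. It rested on 8, 15 and 19 counts in CCI and on 39, 15 and 55 counts in PVT_WT, and its groups did not overlap on the adjusted scale. Its log2 fold change was -1.36 ± 0.42 (edgeR adjusted p = 0.0244). It did not pass without CCI replicate 1 (-1.15, adjusted p = 0.0924), CCI replicate 2 (-1.45, 0.0572), PVT_WT replicate 4 (-1.34, 0.0552) or PVT_WT replicate 6 (-1.12, 0.0876). With the length and GC trend removed it was -0.95 (adjusted p = 0.0907), and with library totals alone -0.81 (adjusted p = 0.174). The log2 ratio of Avpr1a to Oxtr counts was -1.99 ± 0.41 in CCI and -1.89 ± 0.31 in PVT_WT (SD, n = 3). The difference of -0.10 was smaller than the spread within either group (exact permutation p = 0.9).

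Both tachykinin receptor genes fell. Tacr3 (ENSMUSG00000028172, chromosome 3, 134534768 to 134640340, plus strand) encodes the receptor that prefers neurokinin B, and had 3.91, 5.29 and 2.003 CPM in CCI, against 7.23, 8.16 and 11 CPM in PVT_WT. The groups did not overlap on the adjusted scale, but did on deposited FPKM. CCI replicate 3 was the lowest of all libraries, as it was for Tacr1 and Sstr2, whereas for each other member it was the highest of the CCI libraries. Tacr3 had a log2 fold change of -1.25 ± 0.36 (edgeR adjusted p = 0.0195). Without CCI replicate 1 it was -1.29 (adjusted p = 0.0554) and without PVT_WT replicate 6 it was -1.05 (adjusted p = 0.0665). Removing the length and GC trend gave -0.80 (adjusted p = 0.0896), and library totals alone gave -0.66 (adjusted p = 0.177).

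Tacr1 (ENSMUSG00000030043, chromosome 6, 82379315 to 82537085, plus strand) encodes the receptor for substance P. Its level was 8.02, 4.02 and 3.85 CPM in CCI, against 14.0, 10.8 and 7.56 CPM in PVT_WT, and CCI replicate 1 lay above PVT_WT replicate 6. Its log2 fold change was -1.03 ± 0.36 (edgeR adjusted p = 0.0389), the largest adjusted p among the 6 calls. It did not pass without CCI replicate 2 (-0.87, adjusted p = 0.127), CCI replicate 3 (-0.84, 0.132) or PVT_WT replicate 4 (-0.83, 0.108), under the stricter filter (-0.97, 0.0504) or with library totals alone (-0.44, 0.364). The log2 ratio of Tacr3 to Tacr1 counts was -0.52 ± 0.79 in CCI and -0.27 ± 0.75 in PVT_WT (SD, n = 3), and the difference of -0.25 was within that spread (exact permutation p = 0.6). It was 0.00 without CCI replicate 1 and 0.15 without PVT_WT replicate 6.

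Npy1r (ENSMUSG00000036437, chromosome 8, 67149844 to 67159444, plus strand), which encodes the main postsynaptic neuropeptide Y receptor, fell to 6.91, 4.38 and 12.6 CPM in CCI, against 21.5, 20.4 and 25.8 CPM in PVT_WT. All CCI libraries lay well below all PVT_WT libraries on the adjusted scale. On deposited FPKM the groups overlapped, with CCI replicate 3 at 4.51 and PVT_WT replicate 5 at 4.06. The log2 fold change was -1.49 ± 0.35 (edgeR adjusted p = 0.00727), a 2.82-fold higher level in PVT_WT, and it passed with each library left out in turn, from -2.0049 without CCI replicate 3 to -1.21 without CCI replicate 2. It did not pass with the length and GC trend removed (-0.95, adjusted p = 0.0590), with library totals alone (-0.91, 0.0751) or on log2(FPKM + 1) (-0.78, 0.0552), and it passed with mean expression added to the trend (-1.15, 0.0357).

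Npy2r (ENSMUSG00000028004, chromosome 3, 82445690 to 82455391, minus strand) encodes a neuropeptide Y receptor often found on nerve terminals. It had 6.21, 3.93 and 8.55 CPM in CCI, against 9.28, 6.03 and 8.75 CPM in PVT_WT, with overlapping groups. Its log2 fold change of -0.36 ± 0.32 did not pass (edgeR adjusted p = 0.366), and it was positive with library totals alone (0.20, adjusted p = 0.669). Npy2r was called lower in 1 of 17 alternatives, the one chosen after seeing the data. There CCI replicate 3 and PVT_WT replicate 5 were both left out (-0.84, edgeR adjusted p = 0.0128). The log2 ratio of Npy2r to Npy1r counts was -0.15, -0.16 and -0.56 in CCI, against -1.21, -1.75 and -1.56 in PVT_WT. Npy1r counts were thus well above those of Npy2r in every PVT_WT library and closer to them in every CCI library. The difference of 1.22 had an exact permutation p of 0.1, the smallest possible here, and 0.25 adjusted over the 5 pairs, and it was 1.09 to 1.36 with 1 library left out.

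Sstr2 (ENSMUSG00000047904, chromosome 11, 113510168 to 113516854, plus strand) encodes an inhibitory somatostatin receptor and was the most abundant of the 10 per length. It had 15.9, 14.9 and 10.8 CPM in CCI, against 38.3, 17.6 and 16.6 CPM in PVT_WT. On the adjusted scale the CCI libraries lay below the PVT_WT libraries, with a narrow gap apart from PVT_WT replicate 4. On deposited FPKM the groups overlapped. The log2 fold change of -0.80 ± 0.34 did not pass (edgeR adjusted p = 0.0743). The DESeq2 Wald test on all 6 libraries called it lower (-0.85, adjusted p = 0.0359), while edgeR with DESeq2 size factors did not (adjusted p = 0.0546). In edgeR it passed without PVT_WT replicate 5 (-0.998, adjusted p = 0.0131) and without PVT_WT replicate 6 (-1.03, 0.0402), and was -0.35 (0.269) without PVT_WT replicate 4. The gene overlaps Slc39a11 on the opposite strand in the table. This was read from gene starts and ends, not exons, and no strand setting is stated, so whether reads of the 2 were kept apart is not known. No other member overlaps a gene of the table.

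**Figure D2:**
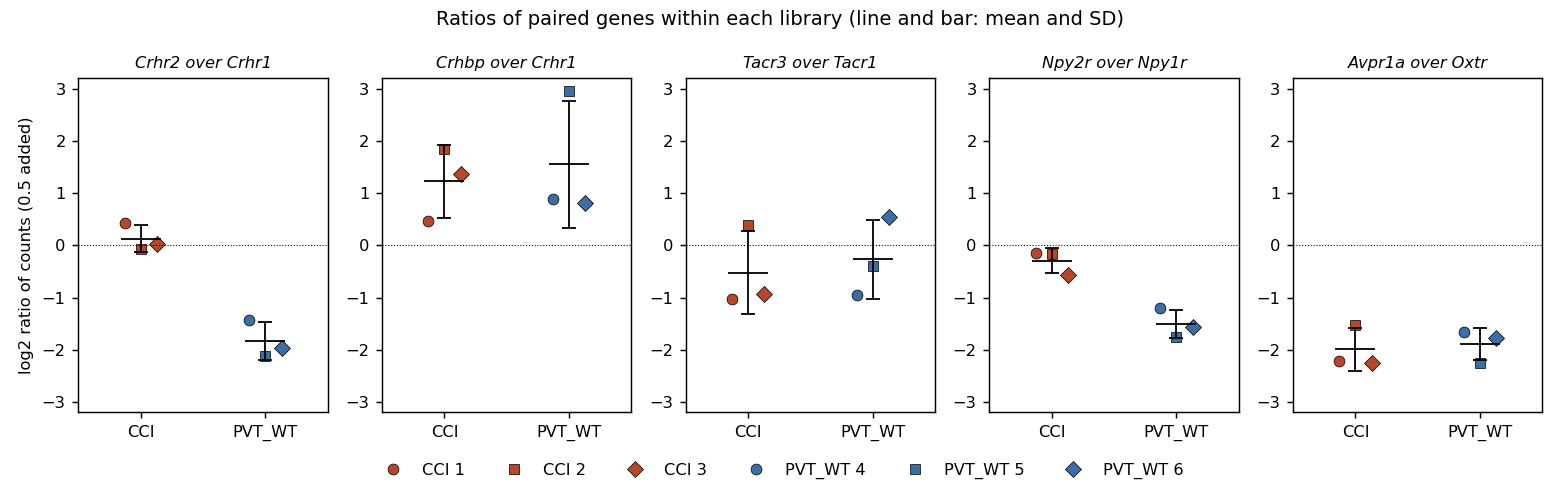
Log2 ratio of the counts of 5 pairs of genes within each library (y axis, 0.5 added to each count, not divided by gene length), with the mean and SD of CCI and PVT_WT. The groups lie apart for Crhr2 over Crhr1 (difference of 1.97) and for Npy2r over Npy1r (1.22), and overlap for the other 3 pairs.

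The order of levels was compared per length on the deposited FPKM, within each group. In CCI, Sstr2 led with 7.96 ± 1.59 FPKM, followed by Crhbp (4.202 ± 1.998), Npy1r (2.85 ± 1.52) and Npy2r (2.27 ± 0.86; SD, n = 3). In PVT_WT, Sstr2 (9.47 ± 5.74 FPKM) was followed by Npy1r (5.38 ± 1.22), Crhbp (1.98 ± 0.35) and Npy2r (1.98 ± 0.66). Oxtr, Tacr3, Tacr1, Crhr1 and Avpr1a held from 0.557 to 1.29 FPKM on average in CCI and from 0.557 to 1.96 FPKM in PVT_WT. Crhr2 was next to last in CCI (0.638 ± 0.174 FPKM) and last in PVT_WT (0.0777 ± 0.0627 FPKM). Of the 9 neighbours in the order, 8 overlapped in range in CCI and 7 in PVT_WT. Sstr2 stood apart from Crhbp in CCI, and in PVT_WT Npy1r stood apart from Crhbp and Crhr1 from Crhr2.

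**Figure D3:**
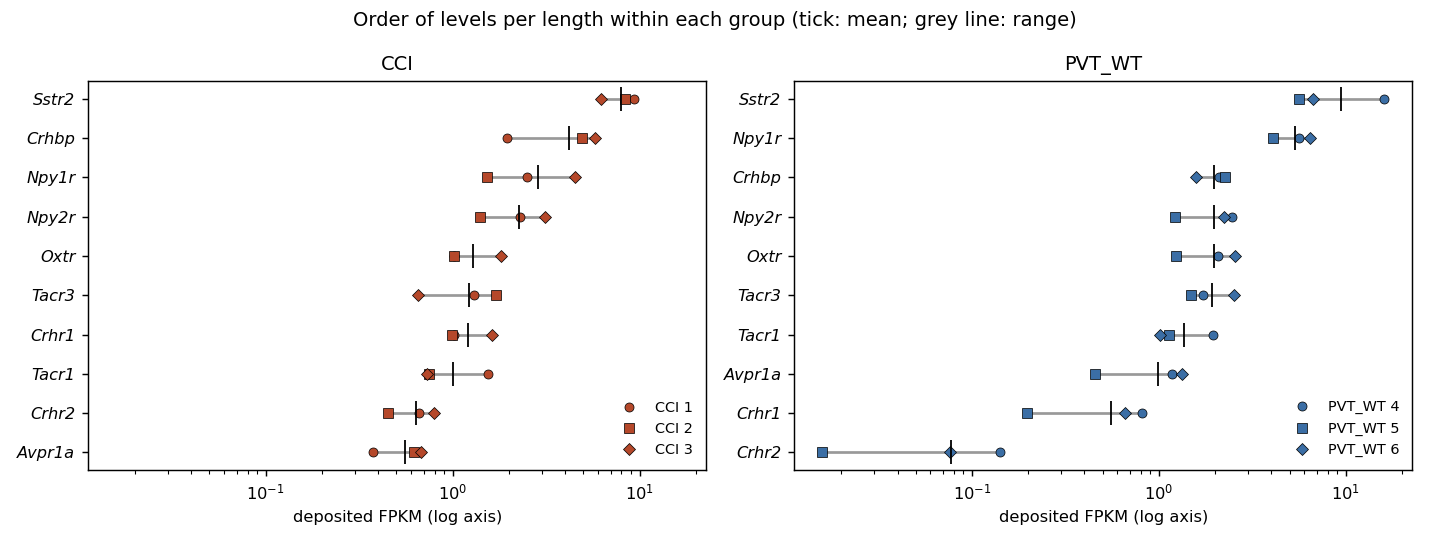
Deposited FPKM (x axis, log scale) of the 10 genes in the CCI (left) and PVT_WT (right) libraries, ordered by group mean, with points for libraries, a tick for the mean and a grey line for the range. Sstr2 is at the top in both groups, and Crhr2 is at the bottom in PVT_WT at 0.0777 FPKM and level with Avpr1a in CCI.

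Among related receptors of the same peptides, 4 of 10 had enough counts to be tested. Of these 1 passed as higher, none as lower and 3 did not pass, beside 27.0% of all genes higher and 25.3% lower. Sstr3, a somatostatin receptor gene of neuronal cilia, rose to 4.51, 3.29 and 4.85 CPM in CCI, against 2.23, 2.60 and 1.65 CPM in PVT_WT (log2 fold change 0.98 ± 0.32, edgeR adjusted p = 0.0297). Its groups did not overlap, but it did not pass without CCI replicate 1 (0.93, adjusted p = 0.0993), CCI replicate 3 (0.86, 0.0946), PVT_WT replicate 4 (0.97, 0.0690) or PVT_WT replicate 6 (0.80, 0.105), and was 0.24 (0.616) with the length, GC and mean expression trend removed. Npy5r, which lies 9064 bp from Npy1r on the opposite strand, had 2.41, 2.92 and 4.47 CPM in CCI, against 5.62, 3.55 and 6.81 CPM in PVT_WT. Its log2 fold change of -0.71 ± 0.35 did not pass (edgeR adjusted p = 0.120). Of those not tested, Tacr2 had 8 counts in CCI and 33 in PVT_WT, Npy4r 16 and 4, Sstr5 7 and 14, and Avpr2 1 and 0. Avpr1b and Npy6r had no count in any library, where a count of 0 allows up to 3.

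Of 13 genes for the peptides themselves, 6 were tested. Of these 1 passed as higher and 5 did not pass, beside 27.0% of all genes higher and 25.3% lower. Npy rose, at 12.4, 14.3 and 65.0 CPM in CCI, against 12.5, 8.98 and 4.64 CPM in PVT_WT (log2 fold change 1.83 ± 0.65, edgeR adjusted p = 0.0417). That call rested on CCI replicate 3, without which the value was 0.62 (adjusted p = 0.243), and CCI replicate 1 lay under PVT_WT replicate 4. Npy also did not pass without PVT_WT replicate 6 (1.503, adjusted p = 0.113). Crh had 1.002, 2.37 and 1.31 CPM in CCI, against 1.78, 2.13 and 1.57 CPM in PVT_WT (edgeR adjusted p = 0.684). Tac1, the substance P gene, and Tac2, the neurokinin B gene, had log2 fold changes of -0.69 ± 0.45 and -0.37 ± 0.49. The urocortin genes, ligands of Crhr2, were barely detected, with 2 counts of Ucn in CCI and 3 in PVT_WT, 1 and 1 of Ucn3, and none of Ucn2. Oxt had 2 counts in CCI and 6 in PVT_WT, Tac4 3 and 1, Cort 37 and 5, and Pyy none.

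Enzymes that cut these peptides were mixed, with 3 of 10 higher, 2 lower and 5 not passing. The shares of all genes were 27.0% higher and 25.3% lower. Ece2, a neuronal relative of endothelin-converting enzyme, rose to 5.51, 4.56 and 5.01 CPM in CCI, against 0.714, 0.946 and 1.12 CPM in PVT_WT (log2 fold change 2.42 ± 0.32), whereas Ece1, which processes internalised peptides in endosomes, fell by 1.66 ± 0.22 on the log2 scale. Both passed in all alternatives. Lnpep, the oxytocin-cleaving aminopeptidase gene, rose by 0.79 ± 0.17, and Nln, the neurolysin gene, by 0.69 ± 0.16. Lnpep was at 0.30 (adjusted p = 0.0827) with the length and GC trend removed, and Nln at 0.44 (0.0523) with mean expression added. Mme, the gene of neprilysin, which degrades substance P, fell by 0.97 ± 0.30. It did not pass without CCI replicate 2 (-0.98, adjusted p = 0.0699), CCI replicate 3 (-0.75, 0.0784) or PVT_WT replicate 4 (-0.87, 0.0656), nor with library totals alone (-0.38, 0.347).

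Downstream, 4 of 21 G protein and effector genes rose, 3 fell and 14 did not pass. Beside these stand 27.0% of all genes called higher and 25.3% called lower. The inhibitory G protein genes Gnai1 and Gnai3, of the class used by neuropeptide Y and somatostatin receptors, fell by 2.12 ± 0.24 and 2.02 ± 0.17 on the log2 scale, and Gnaq, of the class used by tachykinin and oxytocin receptors, fell by 1.11 ± 0.18. Kcnj6, a subunit of the potassium channels opened by such receptors, rose by 1.55 ± 0.26, the phospholipase gene Plcb1 by 1.15 ± 0.21 and the adenylyl cyclase gene Adcy2 by 0.81 ± 0.20. With library totals alone 13 were higher and 2 lower, beside 45.4% and 9.72% of all genes. With the length and GC trend removed 3 were higher and 9 lower, beside 23.0% and 23.7%. With mean expression in the trend Gnaq had a log2 fold change of -0.20 and an adjusted p of 0.426. Among 10 genes of receptor desensitisation, 1 rose, 4 fell and 5 did not pass, beside 27.0% of all genes higher and 25.3% lower. Rgs4 and Rgs7, which shorten G protein signals, fell by 2.06 ± 0.19 and 1.27 ± 0.18, the endosome gene Rab5a by 1.95 ± 0.19 and the arrestin gene Arrb2 by 1.64 ± 0.35, while the receptor kinase gene Grk3 rose by 0.66 ± 0.14. With library totals alone 4 of these genes were higher and 3 lower, beside 45.4% and 9.72% of all genes. Arrb2 was then at -1.09 (adjusted p = 0.0549). Grk3 was at 0.34 (adjusted p = 0.0565) with the length and GC trend removed.

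Over all libraries, deposited counts summed to between 7989139 and 10529886 in CCI and between 12337448 and 15438268 in PVT_WT, with scaling factors from TMM of 1.21 to 1.25 (CCI) and 0.686 to 0.9003 (PVT_WT). Markers of neighbouring regions and cell types differed between the same groups. Their counts below stand beside 27.0% of all genes called higher and 25.3% called lower. The summed level of the 10 receptor genes was 49.1 to 61.3 CPM in CCI and 80.1 to 112 CPM in PVT_WT on the TMM-adjusted totals. On unadjusted library totals, PVT_WT replicate 5 would lie below every CCI library for this sum. Markers of the paraventricular and midline thalamus were detected in every library, but 6 of 11 tested fell and none rose, among them Necab1 (132 CPM on average in CCI, 569 CPM in PVT_WT) and Calb2 (442 CPM in CCI, 1317 CPM in PVT_WT), calcium-binding protein genes, with summed levels of 1336 to 1971 CPM in CCI and 4935 to 7541 CPM in PVT_WT. For pan-neuronal markers the sums were 3546 to 3891 CPM in CCI and 7279 to 9505 CPM in PVT_WT, with 1 of 8 higher (Map2) and 1 lower (Snap25) and a median log2 fold change of -0.30. Most of that gap was Snap25, a synaptic vesicle fusion gene, at 1380 to 1552 CPM in CCI and 4750 to 7125 CPM in PVT_WT. The other 7 markers, summed after its values were seen, came to 2081 to 2339 CPM in CCI and 2379 to 2533 CPM in PVT_WT. The direction of that smaller gap depended on the TMM scaling. On unadjusted library totals every CCI library would lie above every PVT_WT library for this sum. Hippocampal and cortical excitatory markers rose in 7 of 11 tested (275 to 315 CPM in CCI, 177 to 199 CPM in PVT_WT). Some of them were uneven within CCI, as Fezf2 had 2.104, 1.55 and 5.86 CPM in CCI and at most 0.449 CPM in PVT_WT. Neurod6, picked after its values were seen, had 4.21, 3.47 and 57.6 CPM in CCI and at most 2.499 CPM in PVT_WT. Its highest value was in CCI replicate 3. GABAergic markers rose in 6 of 8 tested, with sums of 116, 246 and 411 CPM in CCI replicates 1, 2 and 3 and 59.0 to 104 CPM in PVT_WT. Lateral septum markers rose in 4 of 7 and fell in 1 (333 to 575 CPM in CCI, 473 to 751 CPM in PVT_WT). Crhr2 and Avpr1a are known to be abundant in the lateral septum, and of these Crhr2 rose in CCI and Avpr1a fell. Zic1 and Zic2, transcription factor genes, were among the septum markers that rose, while Prkcd, also listed for the thalamus, fell. Without Prkcd, left out after its values were seen, the other 6 septum markers summed to 249 to 391 CPM in CCI and 136 to 163 CPM in PVT_WT, higher in every CCI library. Habenula markers rose in 1 of 10 and fell in 4 (306 to 766 CPM in CCI, 597 to 2040 CPM in PVT_WT). Hypothalamic markers were low, with 3 of 8 tested, 1 higher and 1 lower (19.0 to 51.9 CPM in CCI, 49.8 to 75.7 CPM in PVT_WT). Choroid plexus markers rose in 1 of 8 (4405 to 5285 CPM in CCI, 1107 to 7610 CPM in PVT_WT). Astrocyte markers rose in 2 of 9 and fell in 2, oligodendrocyte markers rose in 5 of 8, microglial markers rose in 2 of 8 and fell in 1, and endothelial and mural markers rose in 3 of 8 and fell in 2. No marker of these lists was at 0 in all libraries. The part of these markers in the receptor results was not tested. In bulk tissue, fewer cells of a type and less RNA per cell cannot be told apart.

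**Figure D4:**
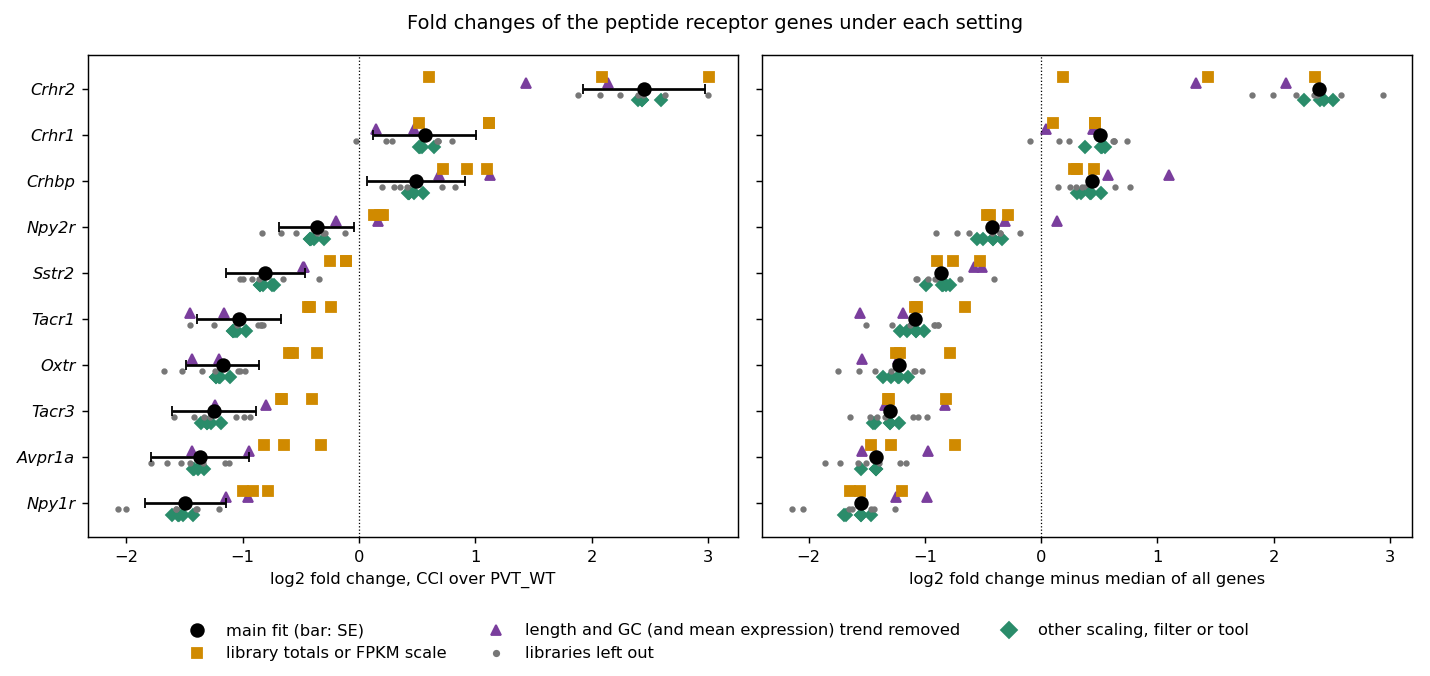
Log2 fold change of CCI over PVT_WT for the 10 genes (left), and the same minus the median of all genes tested (right), in edgeR with TMM scaling (black, marked as the main fit, with its SE) and under each alternative (coloured marks). Crhr2 lies above 0 and Npy1r, Avpr1a, Tacr3, Oxtr and Tacr1 below 0 throughout, and those 5 lower genes range from -2.15 to -0.65 on the right.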

How the data were processed

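Bulk RNA was sequenced from 3 CCI and 3 PVT_WT libraries, with poly-A selection and random priming per the labels' protocols. The submitters' processing notes list the build GRCm39, the read trimmer fastp 0.22.0, the aligner HISAT2 2.1.0, and also StringTie 2.2.1, HTSeq 0.9.1 and DESeq 1.38.3. Which of them made each column, and the strand setting, are not given in the sources used here. The deposited table holds, per the file headers, whole read counts, FPKM and a gene length in bp. The deposited FPKM equalled the count over length and column total, within 4.9e-07.

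Counts were tested as deposited with edgeR 4.0.16 in R 4.3.3 (TMM scaling, filterByExpr, quasi-likelihood F-test, Benjamini-Hochberg adjustment over all genes tested, threshold 0.05). Standard errors were taken as the log2 fold change divided by the square root of F. Alternatives used DESeq2 1.42.0, limma 3.58.1, other scalings and filters, FPKM scales with a pseudocount of 1 or 0.1, smooth trends (mgcv 1.9.3) on gene length and GC content from GENCODE M21 transcripts joined by identifier, and libraries left out. Code was tested on simulated data. Exact permutation tests used scipy 1.17.1 and Python 3.11.15. Intervals and limits from counts cover counting error only.

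The 10 genes, the 5 pathway lists, the 12 marker lists and the pairs were chosen with earlier results of these data known. All members were named, with up to 6 genes that passed from each pathway list, ligands and related receptors too low to test, and markers from the 3 with the smallest p in a list.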

Additional observations from a re-analysis of the deposited data

How the results depend on the processing

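The number of members called higher was 1, and 2 with library totals alone or with the length and GC trend removed (Crhbp added), and 0 under the stricter filter, which did not test Crhr2. The number called lower was 5, and 0 with library totals alone, on log2(FPKM + 1) and on log2(FPKM + 0.1), 2 with the length and GC trend removed and 3 under the stricter filter. Leaving out 1 library gave 2 to 6 members lower, beside 18.2% to 30.5% of all genes, and 1 higher, beside 20.0% to 31.5%. An alternative chosen after seeing the data, CCI replicate 3 and PVT_WT replicate 5 both left out, gave 1 higher and 7 lower. Members with groups that did not overlap numbered 6 (63.0% of all genes), 2 with library totals alone and on both FPKM scales, 3 under the stricter filter, and 6 to 8 with 1 library left out (65.8% to 76.1% of all genes). Of all genes 7461 were called, and 5386 to 9195 in the alternatives. Among the 64 genes of the other pathway lists, 4 of 10 related receptors and 6 of 13 peptide genes were tested, and every gene of the remaining lists. Of the 64, tested or not, 19 were called, beside 52.3% of genes that were tested, which is not the same base. The number was 30 with library totals alone and on log2(FPKM + 0.1), and 31 on log2(FPKM + 1). It was 15 to 27 with 1 library left out. Removing 1 library gave differences in log2 ratio of 1.82 to 2.17 for Crhr2 over Crhr1, 1.09 to 1.36 for Npy2r over Npy1r, -0.70 to 0.38 for Crhbp over Crhr1, -0.71 to 0.15 for Tacr3 over Tacr1 and -0.34 to 0.0247 for Avpr1a over Oxtr, whose sign turned without CCI replicate 1 (0.0099), CCI replicate 3 (0.0247) or PVT_WT replicate 4 (0.0177). Overlapping neighbours in the order of levels numbered 8 of 9 in CCI and 7 of 9 in PVT_WT. With 1 library of the group left out they numbered 6 to 7 in CCI and 5 to 6 in PVT_WT. The neuronal marker Map2, at 0.65, was at -0.0043 with the length and GC trend removed. The causes were not tested. Depth limits Crhr2 most, at 1 to 9 counts per PVT_WT library. No paired analysis was possible because the groups share no replicate number.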

Other observations

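Some peptide genes were uneven within the CCI group, which the comparison of groups does not show. The counts of Cort, the cortistatin gene, were 3, 0 and 34 in CCI replicates 1, 2 and 3, against 5, 0 and 0 in PVT_WT replicates 4, 5 and 6. Sst had 6.91, 30.9 and 33.2 CPM in CCI, against 18.4, 18.2 and 8.68 CPM in PVT_WT, and Avp had 0, 24 and 29 counts in CCI, against 13, 5 and 17 counts in PVT_WT. These genes were picked after their values were seen, and no explanation was tested.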
